A study of Mus musculus with 12 samples.

Results

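Transcripts of 9 genes that mark the biliary epithelium, hepatic progenitors or the keratin filaments of liver epithelial cells were followed in mouse livers depleted of Eif3m. The genes were listed by name for their known roles, with no threshold on their values but with earlier results of these data known, and are Sox9, Krt7, Krt8, Krt18, Krt19, Krt23, Epcam, Spp1 and Cd24a. They are 9 of the 50686 genes in the count table, and all 9 were among the 14248 genes that passed the filter on low counts. Eif3m encodes a subunit of eIF3, a complex that helps load messenger RNA onto the small ribosomal subunit. The groups compared were livers of FVB/N mice given siRNA against Eif3m for 9 days, livers of mice given a control siRNA for 9 days, and the same pair at 13 days. The control was a scrambled luciferase sequence, and both siRNAs were carried in lipid nanoparticles injected into the tail vein, at 0.5 mg/kg and at a rate of 1 injection in 5 days. Mice were 6 to 8 weeks old, and RNA came from ground whole liver. Each of the 4 groups held 3 libraries, and the labels do not say whether these were different animals, so the p-values reflect only how far these libraries scattered. Which liver cells took up the particles is not stated in the labels.

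Keratins form filaments from pairs of a type II and a type I protein. Adult mouse hepatocytes make Krt8 and Krt18 as such a pair, while cholangiocytes, the cells that line the bile ducts, make Krt7 and Krt19 besides. The transcription factor Sox9 marks cholangiocytes and some periportal hepatocytes, is needed for timely bile duct formation in the mouse embryo, and is known to appear in hepatocytes of injured liver. Epcam, an adhesion protein, Cd24a, a lipid-anchored glycoprotein, and Spp1, the secreted protein osteopontin, are used as markers of cholangiocytes and of progenitor-like cells. Spp1 is also made by macrophages, and Cd24a by B cells, neutrophils and red cell precursors.

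Values are CPM, library-scaled counts, and log2 fold changes are Eif3m siRNA over control of the same day, with their standard error (SE). They come from edgeR's quasi-likelihood test with Benjamini-Hochberg adjustment over all 14248 genes tested, and a gene was called at an adjusted p under 0.05. Eif3m itself averaged 4.79 ± 0.0859 CPM in siRNA livers and 44.8 ± 0.684 CPM in control livers at day 9, and 2.37 ± 0.167 CPM in siRNA livers and 36.4 ± 4.56 CPM in control livers at day 13 (SD, n = 3 each). Depth was 38783564 to 54538581 counts per library at day 9 and 7650269 to 9630027 at day 13, so that 1 count was worth 0.0167 to 0.0257 CPM at day 9 and 0.0927 to 0.142 CPM at day 13. Within a group, log2 CPM of a gene varied with a median SD of 0.13 in siRNA and 0.14 in control livers at day 9, and 0.25 in siRNA and 0.27 in control livers at day 13. On the third principal component, which held 9.44% of the variance, the day 13 siRNA replicates 1, 2 and 3 were spread out at 37.6, -36.9 and 4.68, and control replicate 3 of day 13 lay at -52.0 with the other controls of that day at 18 and 15.3. Values are therefore also given without the pair of day 13 libraries lowest on that component, siRNA replicate 2 and control replicate 3. They are given where that ends a call of the 9 genes, or of genes named by smallest p from 5 related lists. Those lists hold other cholangiocyte, progenitor, filament, Notch and YAP genes. Other genes, and the counts per list, were not followed through that refit.

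At day 13, 4 of the 9 genes rose in Eif3m siRNA livers and none fell. The 4 were Sox9, Krt8, Krt18 and Krt23, and in each of them every siRNA library lay above every control library. That is 44.4% of the 9 genes, beside 12.8% of all genes tested called higher at day 13, and beside 17.2% of all genes whose siRNA libraries all lay above the controls. The shares of all genes for the other direction at day 13 were 10.9% called lower and 16.0% with every siRNA library below the controls. At day 9 none of the 9 was called in either direction by edgeR, DESeq2 or limma-voom, while 5.94% of all genes tested were called higher and 6.84% lower by edgeR. A single gene, Krt18, had an unadjusted p under 0.05 at day 9. Groups did not overlap at day 9 for Krt18 and Spp1, which were higher in every siRNA library, and for Krt8, which was lower. The shares of all genes without overlap at day 9 were 22.5% higher and 21.0% lower in siRNA livers. The median log2 fold change of the 9 genes was 0.05 at day 9, against 0.01 over all genes tested, and 0.16 at day 13, against 0.00 over all genes. The siRNA effect differed between the days for 2 of the 9, Sox9 and Krt8, both with the higher effect at day 13, beside 2.55% of all genes tested (0.898% with a higher and 1.66% with a lower effect at day 13). With 3 libraries against 3, an exact permutation test of a single gene cannot give a two-sided p below 0.1, and each of the 4 genes reached that value at day 13.

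**Figure D1:**
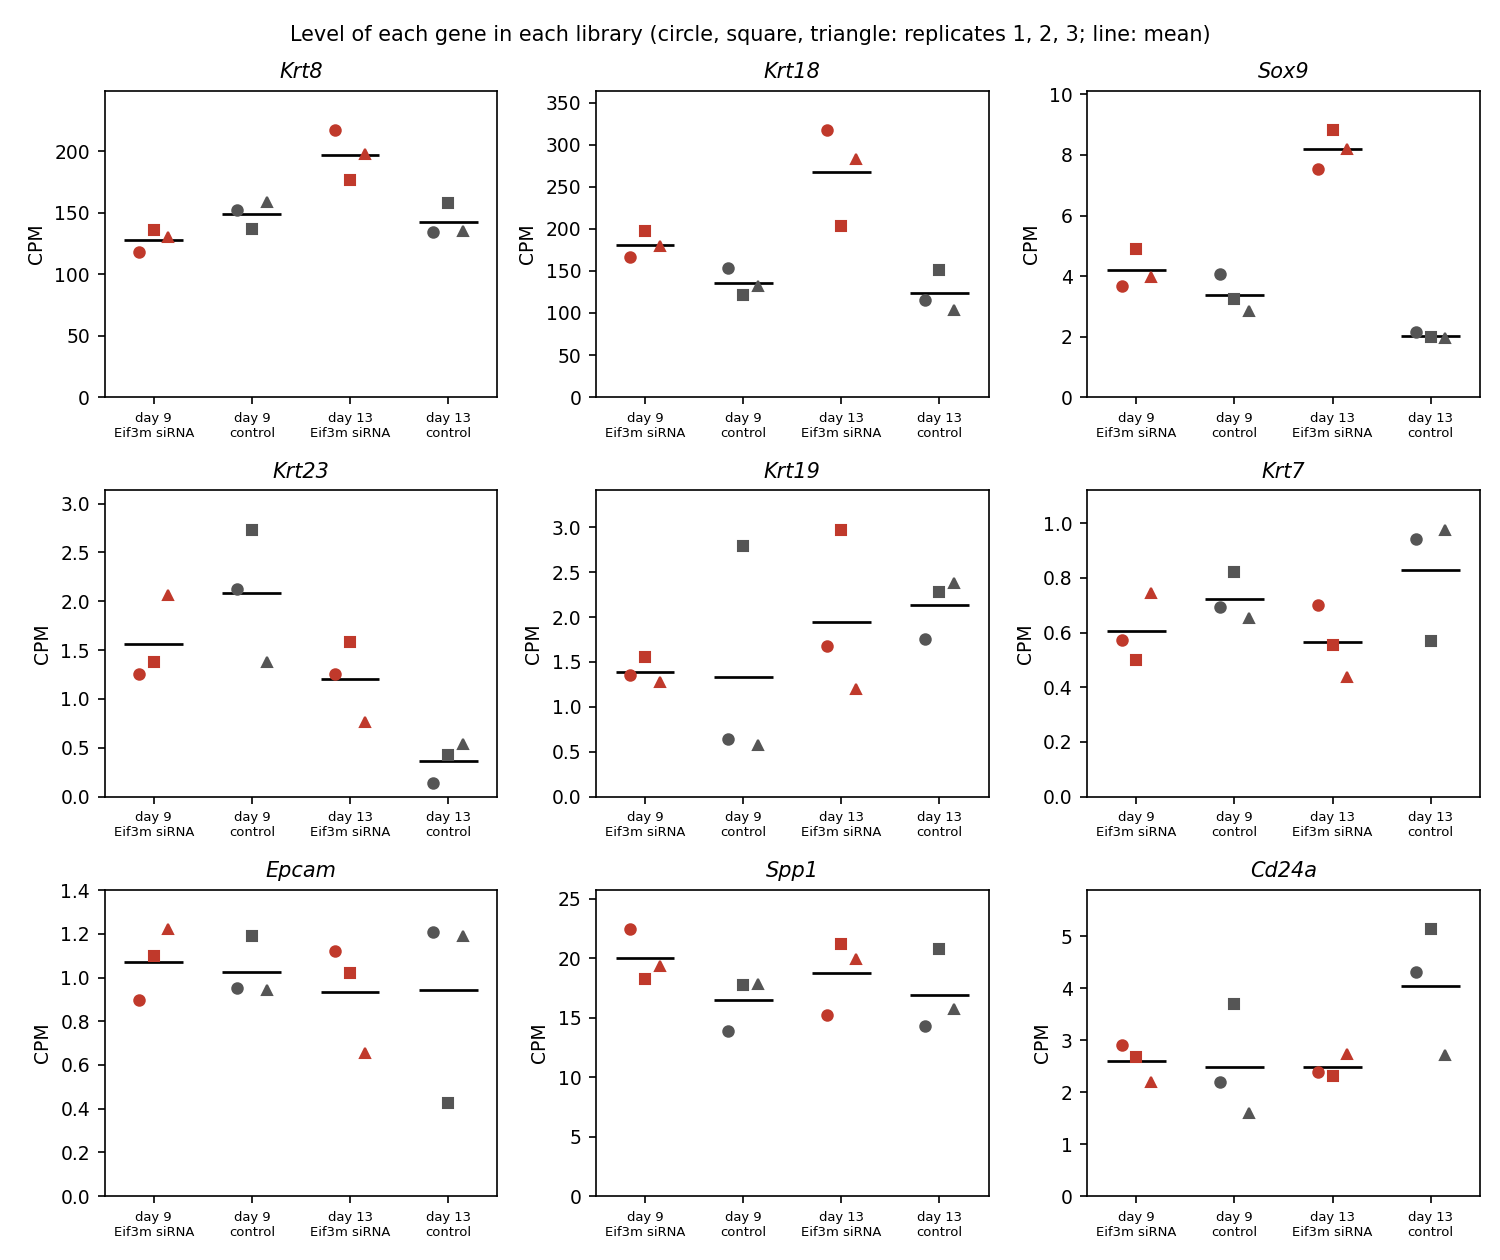
Level of each of the 9 genes in CPM on a linear axis in each library, with day 9 on the left and day 13 on the right, Eif3m siRNA in red and control in grey. Lines are means of 3 libraries. The siRNA libraries of day 13 all lie above the controls for Krt8, Krt18, Sox9 and Krt23, and the groups overlap at day 13 for the other 5 genes.

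Per kilobase of exon, the scale on which levels of different genes were compared, Krt18 and Krt8 were far above the other 7 genes in every group. In the day 13 siRNA livers they stood at 186 ± 41.0 and 101 ± 10.2 CPM per kilobase, and in the day 13 control livers at 86.3 ± 17.1 and 72.7 ± 7.10 CPM per kilobase (SD, n = 3). Spp1 followed with a level of 11.4 ± 1.91 CPM per kilobase in siRNA and 10.3 ± 2.09 in control livers of day 13. The remaining genes were at or below 2 CPM per kilobase in all 4 groups. In the day 9 control livers the levels of Krt23, Cd24a, Sox9 and Krt19 were 1.33 ± 0.435, 0.965 ± 0.419, 0.818 ± 0.150 and 0.721 ± 0.679 CPM per kilobase, and neighbours in this order did not differ beyond their spread. Epcam lay at 0.468 ± 0.0645 and Krt7, the lowest, at 0.102 ± 0.0124 CPM per kilobase in those livers (SD, n = 3).

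Krt8 and Krt18 lie next to each other on chromosome 15, at chr15:101996698-102004482 on the minus strand and chr15:102028180-102032027 on the plus strand of mm10, with 23697 bases between them. They point away from each other and have 9 and 7 merged exons. Their promoter windows are printed because these partner genes rose together at day 13. Each window holds the 250 bases before the RefSeq transcription start (assembly GRCm38.p6, the same coordinates as mm10), at chr15:102004343-102004592 for Krt8 and chr15:102027966-102028215 for Krt18, written 5′ to 3′ on the gene's own strand. Each RefSeq start lies inside the GENCODE span given above. Capitals mark a match to a searched motif.
Krt8: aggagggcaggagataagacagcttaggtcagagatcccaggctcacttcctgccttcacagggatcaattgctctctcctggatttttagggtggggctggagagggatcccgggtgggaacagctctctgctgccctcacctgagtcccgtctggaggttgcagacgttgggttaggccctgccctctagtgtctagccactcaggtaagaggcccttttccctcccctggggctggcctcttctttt
Krt18: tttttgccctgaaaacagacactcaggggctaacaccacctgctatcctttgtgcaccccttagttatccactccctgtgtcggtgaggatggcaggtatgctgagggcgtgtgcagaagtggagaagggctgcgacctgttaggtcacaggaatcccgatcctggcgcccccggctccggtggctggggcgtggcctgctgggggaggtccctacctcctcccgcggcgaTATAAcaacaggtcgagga
The 250-base windows were searched on both strands for 5 motifs, none of which holds another. Of 32851 RefSeq promoter windows of the same length, TATAA was in 22.8%, the CCAAT box in 33.8%, the GGGCGG box in 32.7%, the AP-1 motif TGANTCA in 6.75% and TGATGNAA, an ATF4-type motif, in 3.45%. The only match was a TATAA on the plus strand of Krt18, which starts 19 bases before the transcription start. The other letters searched are not in these windows, from which nothing follows about any factor. RefSeq promoter entries were matched for 6 of the 9 genes.

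Krt18, the type I keratin of hepatocytes, was higher in siRNA livers at both days, but passed the test at day 13 only. At day 13 it stood at 317, 203 and 283 CPM in siRNA livers and at 116, 151 and 104 CPM in control livers. The lowest siRNA library, replicate 2, was still above the highest control library. The fold was 2.16, a log2 fold change of 1.11 (SE 0.175 and adjusted p = 0.000503 by edgeR), with a 95% interval of 0.74 to 1.49. At day 9 Krt18 stood at 166, 197 and 180 CPM in siRNA livers and at 154, 121 and 132 CPM in control livers. Here too every siRNA library was above every control, with a log2 fold change of 0.42 (SE 0.171 and adjusted p = 0.128 by edgeR). That day 9 difference was called in 2 alternatives, with adjusted p = 0.0242 by edgeR when each day was fitted alone and 0.0299 by edgeR without the pair of day 13 libraries lowest on the third component. The day 13 effect exceeded the day 9 effect by 0.69 on the log2 scale (SE 0.243), which did not pass the test (adjusted p = 0.141 by edgeR). Without day 13 siRNA replicate 2 that difference was 0.86 with an adjusted p of 0.0443 by edgeR.

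Krt8, the type II partner, rose at day 13, while its day 9 log2 fold change was of the opposite sign and did not pass the test. At day 13 it stood at 217, 177 and 198 CPM in siRNA livers and at 134, 158 and 135 CPM in control livers, without overlap. The fold was 1.39, a log2 fold change of 0.47 (SE 0.115 and adjusted p = 0.00895 by edgeR). At day 9 Krt8 stood at 118, 136 and 130 CPM in siRNA livers and at 152, 137 and 159 CPM in control livers. Every siRNA library was below every control at day 9, the nearest pair being 136 CPM in siRNA replicate 2 and 137 CPM in control replicate 2, and the log2 fold change of -0.22 (SE 0.113) did not pass the test (adjusted p = 0.229 by edgeR). The effects of the 2 days differed by 0.69 on the log2 scale (SE 0.161 and adjusted p = 0.0424 by edgeR). This difference lost its call, at adjusted p = 0.0525 to 0.119, when any 1 library other than day 13 siRNA replicate 2 or day 13 control replicate 2 was left out, and at 0.0547 with upper-quartile scaling. The day 13 rises of Krt8 and Krt18 kept their calls with each of the 12 libraries left out in turn.

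The ratio of Krt8 to Krt18 transcripts was lower in siRNA livers at both days. This ratio of counts per kilobase within a library does not depend on how libraries were scaled. At day 9 it was 0.522, 0.504 and 0.530 in siRNA livers and 0.725, 0.830 and 0.882 in control livers. At day 13 it was 0.502, 0.642 and 0.514 in siRNA livers and 0.844, 0.768 and 0.952 in control livers. The groups did not overlap at either day. The mean ratio in siRNA livers was 63.9% of that in control livers at day 9 and 64.6% at day 13, and Krt18 transcripts outnumbered Krt8 transcripts per kilobase in all 12 libraries. The ratio was described and not tested. Beside these keratin values, 11 markers of pericentral and periportal hepatocytes had none higher and 2 lower at day 9, and 1 higher and 4 lower at day 13. Of all genes, 5.94% were called higher and 6.84% lower at day 9, and 12.8% higher and 10.9% lower at day 13. The marker that rose was Cps1, named with its values known. It averaged 7130 CPM in siRNA and 4270 CPM in control livers at day 13 (log2 fold change 0.74, adjusted p = 0.0132 by edgeR). The summed level of the 11 markers was 82900 to 92300 CPM in siRNA livers and 113000 to 117000 CPM in control livers at day 9, and 95900 to 152000 CPM in siRNA livers and 170000 to 193000 CPM in control livers at day 13. Most of each sum was Alb, named for that share with its values known. Alb averaged 68300 CPM in siRNA and 89700 CPM in control livers at day 9, and was not called (adjusted p = 0.137 by edgeR). At day 13 Alb averaged 98300 CPM in siRNA and 155000 CPM in control livers (adjusted p = 0.0102 by edgeR). The part of these shifts in the keratin values was not tested. Krt8 has a processed pseudogene, Krt8-ps, that is 98.6% identical over 941 bases, and its counts were 0.218% of those of Krt8. Krt18 has a similar copy, Gm5200, with 90.5% identity over 1267 bases, which is not among the genes counted. Krt8 also shares 101 exon bases with Gm36026 on the other strand, while Krt18 shares none with another gene. The Krt8 estimate carries the uncertainty of its copy and its overlap, and the Krt18 estimate that of its copy.

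**Figure D2:**
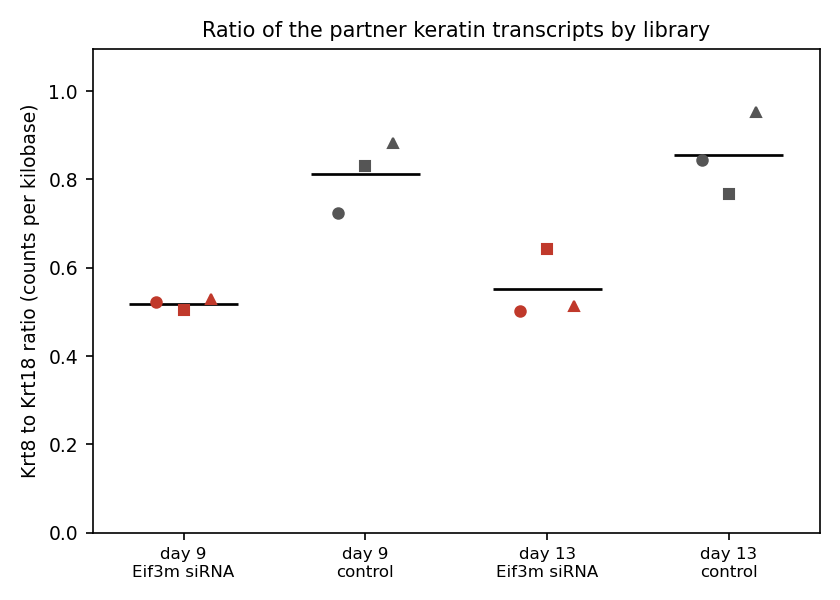
Ratio of Krt8 to Krt18 counts per kilobase of exon in each library (vertical axis, from 0), by day, with Eif3m siRNA in red, control in grey and lines at the means of 3 libraries. The siRNA libraries lie between 0.502 and 0.642, and the control libraries between 0.725 and 0.952.

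Krt23 is a type I keratin on chromosome 11 (chr11:99477974-99493137, minus strand) that is scarce in healthy mouse liver and known to be induced in liver injury. It was detected with few reads at day 13, with 9, 17 and 7 counts in siRNA livers and 1, 3 and 5 counts in control livers. These are 1.26, 1.58 and 0.767 CPM in siRNA livers and 0.135, 0.427 and 0.542 CPM in control livers. The groups did not overlap, and the log2 fold change was 1.67 (SE 0.564 and adjusted p = 0.0460 by edgeR), with a 95% interval of 0.46 to 2.88. This call was close to the threshold. It was lost, at adjusted p = 0.0506 to 0.157, without any 1 of 8 libraries: day 9 siRNA replicate 1 or 2, day 9 control replicate 1, day 13 siRNA replicate 1 or 2, or any of the day 13 controls. Its adjusted p was 0.0506 by edgeR with upper-quartile scaling, 0.181 by limma-voom and 0.137 by edgeR without the pair of day 13 libraries lowest on the third component. At day 9, Krt23 stood at 1.26, 1.38 and 2.06 CPM in siRNA livers and at 2.13, 2.73 and 1.38 CPM in control livers. The groups overlapped, and the log2 fold change was -0.42 (SE 0.306 and adjusted p = 0.415 by edgeR). The difference of the effects between the days, 2.08 on the log2 scale (SE 0.643), did not pass the test (adjusted p = 0.0968 by edgeR).

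Of 16 other keratin genes looked at, which belong to skin and other stratified or simple epithelia, 8 had no count in any library. These were Krt1, Krt5, Krt6a, Krt6b, Krt13, Krt15, Krt16 and Krt86. Krt10 alone passed the filter, with log2 fold changes of -0.16 at day 9 (adjusted p = 0.754 by edgeR) and 0.61 at day 13 (adjusted p = 0.256 by edgeR). The list of genes for partners of keratin filaments and for other filament proteins held 14 genes, of which 13 were tested. At day 13, 3 of the 13 rose and none fell, and the list's median log2 fold change was -0.05 against 0.00 over all genes. Over all genes tested, 12.8% were called higher and 10.9% lower at that day. Pkp2, a desmosomal plaque protein, averaged 35.7 ± 5.79 CPM in siRNA livers and 20.2 ± 3.27 CPM in control livers at day 13 (SD, n = 3), a log2 fold change of 0.82 (adjusted p = 0.000944 by edgeR). Lmna, which encodes the nuclear lamins A and C, averaged 60.1 ± 1.42 CPM in siRNA livers and 42.9 ± 2.05 CPM in control livers (SD, n = 3), with 0.49 on the log2 scale (adjusted p = 0.00495 by edgeR). The desmosomal cadherin Dsc2 was the other gene that rose, with a log2 fold change of 0.63 (adjusted p = 0.0312 by edgeR), and is named after its values were seen. It stood at 54, 83.9 and 93.6 CPM in siRNA livers and at 43.6, 52.7 and 53.1 CPM in control livers. The Dsc2 call was not followed through the alternatives. Dsp and Plec, which encode linkers of keratin filaments to junctions, had log2 fold changes of -0.04 and 0.23 at day 13 and passed at neither day. At day 9, 1 of the 13 rose and 1 fell, beside 5.94% of all genes called higher and 6.84% called lower. Vim, the intermediate filament gene of mesenchymal cells, averaged 26.7 ± 5.35 CPM in siRNA livers and 14.6 ± 1.61 CPM in control livers (SD, n = 3), a log2 fold change of 0.87 (adjusted p = 0.00804 by edgeR). Jup, which encodes plakoglobin, fell by 0.30 on the log2 scale (adjusted p = 0.0477 by edgeR). The Vim call was lost without day 9 siRNA replicate 1, and the Jup call without any 1 library other than day 13 siRNA replicate 2 or day 13 control replicate 3. Dsp, Plec and Dsc2 were likewise chosen for mention with their values known.

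Sox9 had the largest called change of the 9 genes. It lies at chr11:112782224-112787760 on the plus strand and has 3 exons. At day 13 it stood at 7.55, 8.81 and 8.21 CPM in siRNA livers and at 2.15, 1.99 and 1.95 CPM in control livers, from 54, 95 and 75 counts in siRNA livers and 16, 14 and 18 counts in control livers. The groups were far apart beside their spread, and the fold was 4.04, a log2 fold change of 2.02 (SE 0.217 and adjusted p = 2.97e-05 by edgeR) with a 95% interval of 1.55 to 2.48. At day 9 Sox9 stood at 3.68, 4.90 and 3.98 CPM in siRNA livers and at 4.06, 3.24 and 2.85 CPM in control livers. Control replicate 1 overlapped the siRNA libraries, and the log2 fold change was 0.31 (SE 0.163 and adjusted p = 0.239 by edgeR), with a 95% interval of -0.04 to 0.66. The day 13 effect exceeded the day 9 effect by 1.71 on the log2 scale (SE 0.273 and adjusted p = 0.00737 by edgeR). Both the day 13 rise and the difference between the days kept their calls with each of the 12 libraries left out in turn. Among expressed genes ranked by level per kilobase, Sox9 stood at percentile 44.7 in siRNA livers and 20.9 in control livers of day 13.

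**Figure D3:**
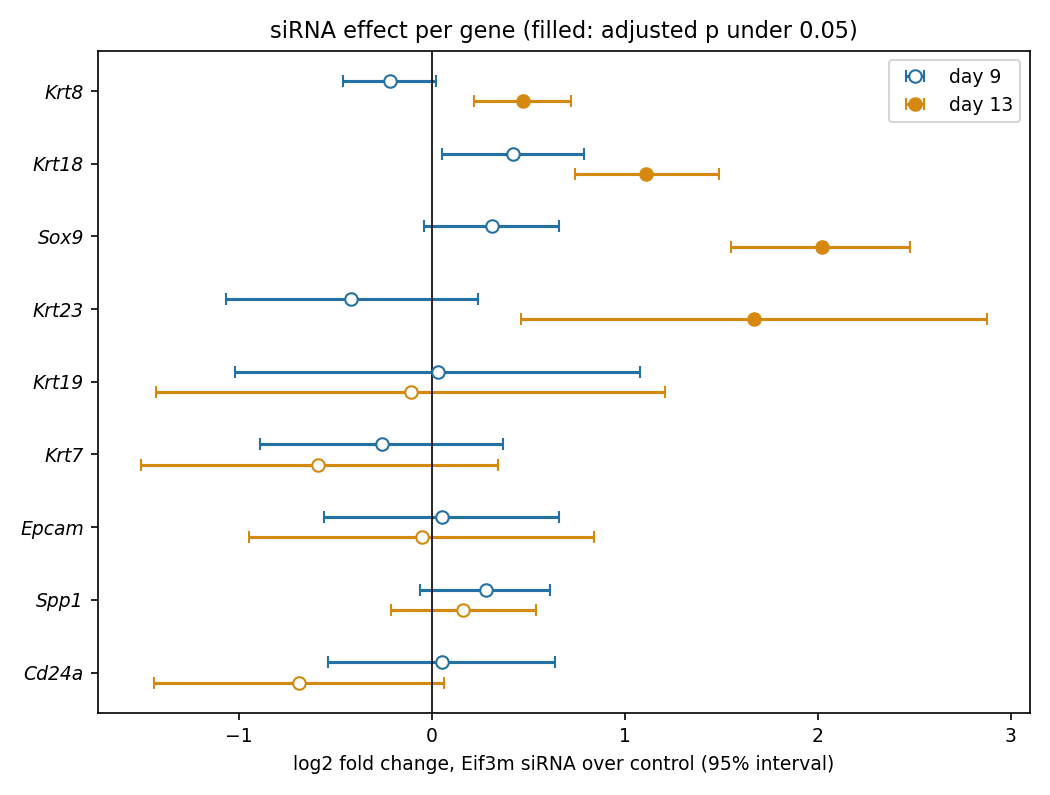
Log2 fold change of each of the 9 genes, Eif3m siRNA over control, at day 9 (blue) and day 13 (orange) with 95% intervals from edgeR. Filled points passed at an adjusted p under 0.05. They are the day 13 values of Krt8 (0.47), Krt18 (1.11), Sox9 (2.02) and Krt23 (1.67), and no day 9 value is filled.

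In whole liver RNA, more cells of a type cannot be told apart from more RNA of these genes per cell. Other markers of cholangiocytes were therefore set beside Sox9 and the keratins. Of 19 such genes in the table, 14 were tested, and at day 13 2 rose and none fell, with a median log2 fold change of 0.11 against 0.00 over all genes. At day 9, 1 rose and none fell, with a median of 0.01, the same as over all genes. Beside these counts, 12.8% of all genes were called higher and 10.9% lower at day 13, and 5.94% higher and 6.84% lower at day 9. Defining biliary genes were near 0: over all 12 libraries together, the secretin receptor gene Sctr had 2 counts, the tight junction gene Cldn4 20 and the chloride channel gene Cftr 44. The summed level of the 19 genes was 270 to 329 CPM in siRNA livers and 248 to 331 CPM in control livers at day 13, and 261 to 328 CPM in siRNA livers and 253 to 267 CPM in control livers at day 9. A few genes held most of it. At day 13 Sorbs2 averaged 113 CPM in siRNA and 54.3 CPM in control livers. Onecut2 averaged 69.5 and 89.3 CPM and Cdh1 61.3 and 79.9 CPM, and both are named for their share with values known. These estimates went in opposite directions, so the sum says little about the scarcer genes of the list. The part of a change in biliary cell number in the rise of Sox9 was not tested.

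The cholangiocyte list's called genes were Sorbs2 and Lamb3. Sorbs2, an adaptor protein of the actin cytoskeleton, averaged 113 ± 12.5 CPM in siRNA livers and 54.3 ± 7.98 CPM in control livers at day 13 (SD, n = 3), a log2 fold change of 1.06 (adjusted p = 0.00107 by edgeR). At day 9 it averaged 76.6 ± 23.5 CPM in siRNA livers and 45.8 ± 3.14 CPM in control livers (SD, n = 3), with 0.74 on the log2 scale (adjusted p = 0.0165 by edgeR), a call that was lost without day 9 siRNA replicate 2, control replicate 1 or control replicate 3. Lamb3, a laminin chain of epithelial basement membrane, averaged 3.67 ± 1.44 CPM in siRNA livers and 1.44 ± 0.168 CPM in control livers at day 13 (SD, n = 3), a log2 fold change of 1.37 (adjusted p = 0.00507 by edgeR). Without the same pair of libraries it was 0.95 with an adjusted p of 0.0602. Mesothelial cells, which share keratins with cholangiocytes, were checked with 10 markers. None of the 8 tested was called at either day, and their summed level was 6.4 to 8.43 CPM in siRNA livers and 8.77 to 10.6 CPM in control livers at day 13.

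Krt7, Krt19 and Epcam, the genes most used to mark cholangiocytes, did not pass the test at either day. Krt7 (chr15:101411043-101430313) stood at 0.699, 0.556 and 0.438 CPM in siRNA livers and at 0.942, 0.570 and 0.975 CPM in control livers at day 13, from 15 counts in siRNA livers and 20 in control livers. At so few counts the 95% interval of its log2 fold change of -0.59 (SE 0.432 and adjusted p = 0.381 by edgeR) ran from -1.51 to 0.34. At day 9, Krt7 stood at 0.574, 0.500 and 0.743 CPM in siRNA livers and at 0.694, 0.820 and 0.652 CPM in control livers, with overlap and a log2 fold change of -0.26 (SE 0.294 and adjusted p = 0.614 by edgeR). Krt7 shares 77 exon bases with Gm671 on the other strand. Epcam (chr17:87635979-87651129) stood at 1.12, 1.02 and 0.657 CPM in siRNA livers and at 1.21, 0.427 and 1.19 CPM in control livers at day 13. At day 9 it stood at 0.897, 1.10 and 1.22 CPM in siRNA livers and at 0.951, 1.19 and 0.941 CPM in control livers. The Epcam groups overlapped at both days, and its 95% intervals of -0.56 to 0.66 at day 9 and -0.95 to 0.84 at day 13 span both directions.

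Krt19 (chr11:100140810-100148665, minus strand) was dominated by a single control library at day 9. It stood at 1.35, 1.55 and 1.28 CPM in siRNA livers and at 0.643, 2.79 and 0.579 CPM in control livers, from 75, 93 and 62 counts in siRNA livers and 25, 143 and 24 counts in control livers. The 3 siRNA libraries lay close together, between a pair of low controls and the high control replicate 2. The log2 fold change was 0.03 (SE 0.485 and adjusted p = 0.977 by edgeR), with a 95% interval of -1.02 to 1.08. Without control replicate 2 it was 1.19 (SE 0.34 and adjusted p = 0.0480 by edgeR), so the day 9 value of Krt19 rests on that library. At day 13, Krt19 stood at 1.68, 2.97 and 1.2 CPM in siRNA livers and at 1.75, 2.28 and 2.38 CPM in control livers. The groups overlapped, with a log2 fold change of -0.11 (SE 0.61 and adjusted p = 0.922 by edgeR).

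The gene whose log2 CPM followed Krt19 most closely over the 12 libraries, after each day's mean was taken out, was Dmbt1, a secreted mucosal glycoprotein of epithelia (Pearson r = 0.895, n = 12 libraries, among the 9312 genes that averaged 5 CPM or more). At day 9, Dmbt1 stood at 11.7, 29.6 and 7.89 CPM in siRNA livers and at 0.514, 60.2 and 0.314 CPM in control livers. At day 13 it stood at 4.62, 43.4 and 0 CPM in siRNA livers and at 0.269, 6.13 and 5.2 CPM in control livers. The library with the highest Dmbt1 level within each day, control replicate 2 at day 9 and siRNA replicate 2 at day 13, was also the one with the highest Krt19 level. Such correlations come from the same 12 libraries and carry both the group difference and the spread within groups.

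**Figure D4:**
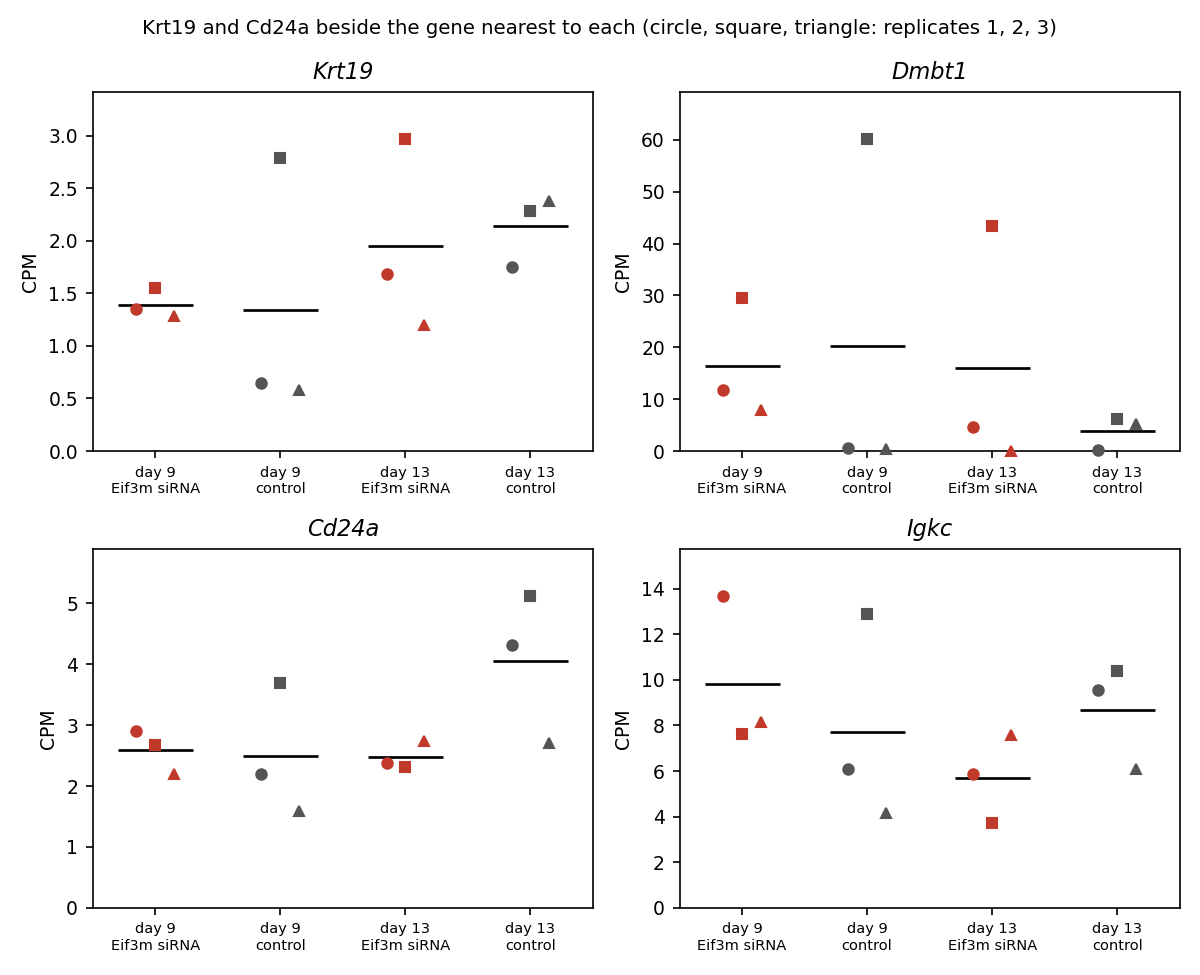
CPM per library for Krt19 beside Dmbt1 and for Cd24a beside Igkc, with Eif3m siRNA in red and control in grey, and lines at the means of 3 libraries. Day 9 control replicate 2 (square) is the highest day 9 library for Krt19 (2.79 CPM), Dmbt1 (60.2 CPM) and Cd24a (3.69 CPM).

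Cd24a (chr10:43578284-43584265, plus strand) was high in the same day 9 control library. At day 9 it stood at 2.91, 2.68 and 2.19 CPM in siRNA livers and at 2.19, 3.69 and 1.59 CPM in control livers, with overlap and a log2 fold change of 0.05 (SE 0.273 and adjusted p = 0.933 by edgeR). At day 13 it stood at 2.38, 2.32 and 2.74 CPM in siRNA livers and at 4.31, 5.13 and 2.71 CPM in control livers. Control replicate 3 lay among the siRNA libraries, the other controls above them, and the log2 fold change of -0.69 (SE 0.349) did not pass the test (adjusted p = 0.174 by edgeR). The gene nearest to Cd24a in pattern was Igkc, the immunoglobulin kappa constant gene of B cells and plasma cells, with r = 0.878 over the 12 libraries, and Ighm, the IgM heavy chain gene, was also among the nearest 3, with r = 0.866. Igkc stood at 5.87, 3.71 and 7.56 CPM in siRNA livers and at 9.55, 10.4 and 6.07 CPM in control livers at day 13. Control replicate 3 was again the lowest control. The 8 B cell markers summed to 5.38 to 13.3 CPM in siRNA livers and 11.3 to 15.5 CPM in control livers at day 13, and to 10.8 to 21.4 CPM in siRNA livers and 9.70 to 31.0 CPM in control livers at day 9. None of the 8 was called at either day, and the part of B cells in the Cd24a values was not tested. Of the other cells known to make Cd24a, neutrophils had none of 6 tested markers called at either day. For red cell precursors a list of erythroid markers was used, which includes globin genes and does not tell precursors from other red cells. Of its 8 tested genes, 1 was lower at day 9, 4 were lower at day 13 and none was higher. The shares of all genes called were 5.94% higher and 6.84% lower at day 9, and 12.8% higher and 10.9% lower at day 13. The 9 neutrophil markers summed to 2.13 to 4.60 CPM in siRNA livers and 4.22 to 10.3 CPM in control livers at day 13, and the 9 erythroid markers to 767 to 1890 CPM in siRNA livers and 2160 to 6000 CPM in control livers. Their part in the Cd24a values was not tested either. Copies of Cd24a with over 90% identity were found, of which Gm15352 had 0 counts.

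Spp1 (chr5:104435118-104441050, plus strand) was the most abundant of the 9 genes after the hepatocyte keratins. At day 9 it stood at 22.4, 18.2 and 19.3 CPM in siRNA livers and at 13.9, 17.7 and 17.8 CPM in control livers. Every siRNA library was above every control, by a small margin between 18.2 and 17.8 CPM, and the log2 fold change of 0.28 (SE 0.157) did not pass the test (adjusted p = 0.279 by edgeR). At day 13 the values were 15.2, 21.2 and 19.9 CPM in siRNA livers and 14.3, 20.8 and 15.7 CPM in control livers, with overlap and a log2 fold change of 0.16 (SE 0.175 and adjusted p = 0.549 by edgeR). Monocytes and macrophages, which also make Spp1, were followed with 15 markers. Of 14 tested, 3 rose and none fell at day 9, with a median log2 fold change of 0.56 against 0.01 over all genes, and none rose and 4 fell at day 13, with a median of -0.61 against 0.00, beside 5.94% of all genes called higher at day 9 and 10.9% called lower at day 13. Lyz2, the macrophage lysozyme gene, was called at both days, with log2 fold changes of 1.26 at day 9 (adjusted p = 0.000144 by edgeR) and -0.74 at day 13 (adjusted p = 0.00222 by edgeR). Their summed level was 252 to 284 CPM in siRNA livers and 159 to 205 CPM in control livers at day 9, and 146 to 213 CPM in siRNA livers and 271 to 345 CPM in control livers at day 13. Their part in the Spp1 values was not tested. Spp1 shares 309 exon bases with Gm42793 on the same strand, which had 1 count over all libraries together.

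Other genes of hepatic progenitors and fetal hepatocytes included 11 tested of 16, with Foxl1 at 0 in every library. At day 9, 2 rose and none fell, with a median log2 fold change of 0.22 against 0.01 over all genes. At day 13, 1 rose and none fell, with a median of -0.11 against 0.00. Over all genes, 5.94% were called higher and 6.84% lower at day 9, and 12.8% higher and 10.9% lower at day 13. Tnfrsf12a, the receptor of the progenitor mitogen TWEAK, averaged 9.00 ± 1.59 CPM in siRNA livers and 2.91 ± 1.17 CPM in control livers at day 13 (SD, n = 3), a log2 fold change of 1.62 (adjusted p = 0.000540 by edgeR). At day 9 it averaged 4.79 ± 0.373 CPM in siRNA livers and 2.71 ± 0.501 CPM in control livers (SD, n = 3), with 0.82 on the log2 scale (adjusted p = 0.0205 by edgeR), a call lost without day 9 siRNA replicate 2 or 3 or day 9 control replicate 1 or 3. Cd44, the hyaluronan receptor, which leukocytes also make, averaged 13.8 ± 1.48 CPM in siRNA livers and 5.72 ± 0.652 CPM in control livers at day 9 (SD, n = 3), a log2 fold change of 1.27 (adjusted p = 0.000256 by edgeR). The day 13 averages were 6.35 ± 0.193 CPM in siRNA livers and 8.02 ± 1.84 CPM in control livers (SD, n = 3), which did not pass the test (log2 fold change -0.34, adjusted p = 0.203 by edgeR). Its effect differed between the days, by -1.61 on the log2 scale (adjusted p = 0.00504 by edgeR).

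Sox9 is a known target of Notch and of YAP signalling in mouse liver, and genes of both pathways were set beside it. Of 10 Notch pathway genes tested, 1 rose and 1 fell at day 9, and 2 rose and none fell at day 13, with median log2 fold changes of 0.08 at day 9 and -0.08 at day 13, against 0.01 and 0.00 over all genes. Beside these counts, 5.94% of all genes were called higher and 6.84% lower at day 9, and 12.8% higher and 10.9% lower at day 13. Hes1, the canonical Notch target, stood at 8.97, 9.08 and 10.8 CPM in siRNA livers and at 16.5, 18.8 and 12.5 CPM in control livers at day 9, a log2 fold change of -0.73 (adjusted p = 0.0261 by edgeR). The day 13 values were 25.7, 21.1 and 26.2 CPM in siRNA livers and 15.6, 20.4 and 10.6 CPM in control livers, a log2 fold change of 0.66 (adjusted p = 0.0395 by edgeR). The groups did not overlap at either day, and the effects of the 2 days differed by 1.39 on the log2 scale (adjusted p = 0.0257 by edgeR). With a library left out, the Hes1 log2 fold changes kept their sign, at -0.87 to -0.59 at day 9 and 0.42 to 0.9 at day 13. The calls were nevertheless lost without any 1 of several libraries, as given below. Without the pair of day 13 libraries lowest on the third component, the day 13 log2 fold change was 0.51 (adjusted p = 0.0939 by edgeR). The day 13 call was also lost in alternatives that kept all libraries. Its adjusted p was 0.063 with upper-quartile scaling and 0.0786 with each day alone, both by edgeR, and 0.0515 by limma-voom. The day 9 call was lost without siRNA replicate 1 or 2 or control replicate 1 or 2 of day 9, and the day 13 call without siRNA replicate 1 or 3 or control replicate 1 or 3 of day 13 or siRNA replicate 1 or 2 of day 9. The difference was lost, at adjusted p = 0.0525 to 0.0842, without any 1 of 7 libraries: siRNA replicate 1 or 2 or control replicate 1 or 2 of day 9, or siRNA replicate 1 or 3 or control replicate 1 of day 13. The receptor gene Notch1 was called higher at day 9 (log2 fold change 0.58, adjusted p = 0.0439 by edgeR) and at day 13 (0.65, adjusted p = 0.0280 by edgeR). The day 9 call of Notch1 was lost without any 1 of the day 9 siRNA libraries, day 9 control replicate 2 or 3, day 13 siRNA replicate 3 or day 13 control replicate 1, and the day 13 call without siRNA replicate 2 or 3 or control replicate 1 or 2 of day 13.

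Of 12 tested targets or partners of YAP and TEAD, 2 rose and none fell at day 9, and 1 rose and 3 fell at day 13, with median log2 fold changes of 0.00 at day 9 and -0.34 at day 13, against 0.01 and 0.00 over all genes. Of all genes tested, 5.94% were called higher at day 9, and 12.8% higher and 10.9% lower at day 13. Ccn2, the connective tissue growth factor gene, stood at 6.42, 7.25 and 5.90 CPM in siRNA livers and at 2.37, 3.16 and 3.21 CPM in control livers at day 9, a log2 fold change of 1.16 (adjusted p = 0.000503 by edgeR). The Ccn2 values of day 13 were 4.20, 3.71 and 4.60 CPM in siRNA livers and 6.46, 7.69 and 7.15 CPM in control livers, a log2 fold change of -0.77 (adjusted p = 0.00878 by edgeR). The groups were apart at both days, in opposite directions, and the effects differed by -1.93 on the log2 scale (adjusted p = 0.00242 by edgeR). Without the pair of day 13 libraries lowest on the third component, the day 13 log2 fold change of Ccn2 was -0.70 (adjusted p = 0.0558 by edgeR). Axl, a receptor tyrosine kinase, averaged 16.7 ± 0.788 CPM in siRNA livers and 33.2 ± 4.12 CPM in control livers at day 13 (SD, n = 3), a log2 fold change of -1.0 (adjusted p = 0.00012 by edgeR). Ccn1 fell by 0.61 at day 13 (adjusted p = 0.0408 by edgeR), and Tead1, which encodes the transcription factor partner of YAP, rose by 0.64 at day 9 (adjusted p = 0.0324 by edgeR) and 0.80 at day 13 (adjusted p = 0.00825 by edgeR). The Ccn1 call was lost without the same pair (adjusted p = 0.112 by edgeR), without day 9 control replicate 2, any 1 of the day 13 siRNA libraries or day 13 control replicate 1 or 3, and the day 9 call of Tead1 without siRNA replicate 1 or 2 or control replicate 1 or 3 of day 9. Stellate cells and myofibroblasts, which also express Ccn2, had 1 of 11 markers higher and none lower at day 9, and none higher and 4 lower at day 13. These counts stand beside the shares of all genes given above.

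**Figure D5:**
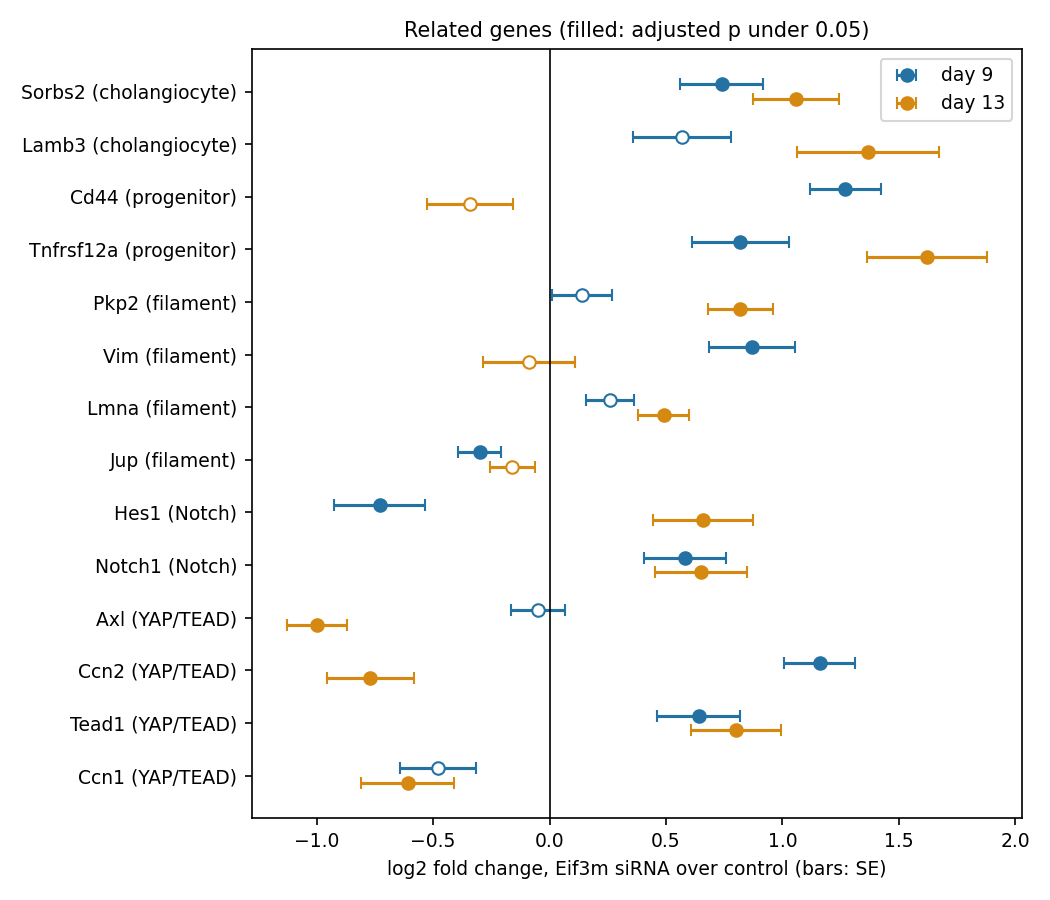
Log2 fold change, Eif3m siRNA over control, of the called genes of 5 related lists at day 9 (blue) and day 13 (orange), with bars of 1 SE and filled points at an adjusted p under 0.05 by edgeR. Ccn2 passed in opposite directions at the days, with 1.16 at day 9 and -0.77 at day 13, and so did Hes1, with -0.73 and 0.66.

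For Sox9, the gene of most like pattern over the 12 libraries after each day's mean was taken out was Trib3, a pseudokinase gene known to be induced by ATF4 (r = 0.977, among 9312 genes). Trib3 averaged 74.7 ± 15.6 CPM in siRNA livers and 2.12 ± 0.523 CPM in control livers at day 13, and 33.7 ± 13.2 CPM in siRNA livers and 10.4 ± 1.72 CPM in control livers at day 9 (SD, n = 3). Ktn1 and Ces2g came next for Sox9. For Krt18 the nearest gene was Eif2b5, a subunit of the translation factor eIF2B (r = 0.987), followed by Rpl37 and Alg3. For Krt8 it was Cpsf3 (r = 0.947), for Krt23 Cdk2 (r = 0.924), for Krt7 Hgsnat (r = 0.906), for Epcam Ripk2 (r = 0.866) and for Spp1 Chmp1b (r = 0.933). None of the 9 genes was among these nearest genes of another. Only Krt8, Krt18 and Spp1 averaged 5 CPM or more, so the others of the 9 could not appear there, and nothing follows from their absence. The partner keratins Krt8 and Krt18 had r = 0.733 over the same 12 libraries, Sox9 and Krt18 had r = 0.876, and Sox9 and Krt8 had r = 0.706.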

How the data were processed

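Messenger RNA captured from ground livers was sequenced in 12 libraries, 4 groups of 3, grouped by the siRNA and day in the labels. The authors deposited 1 table of estimated counts for 50686 Ensembl genes, and STAR 2.5.3a and RSEM 1.3.0 were used on mm10, per the submitters' processing notes. For their settings, annotation release and strand handling, the sources used here give nothing. The deposited values are whole numbers and were taken as rounded expected counts. Strand being unstated, reads of a gene and its antisense neighbour may not be separable.

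Symbols, exon lengths and overlaps were taken from GENCODE M21 on that build, which named 50462 of the identifiers, and the 224 others held 0.0199% of counts. Promoters came from RefSeq on GRCm38.p6. Near-identical copies were sought with blastn 2.17.0 at 90% identity over at least 200 bases. Depth and the worth of 1 count are given with the results.

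Genes were kept with filterByExpr at a minimum count of 10, which left 14248 with at least 99.9% of each library's counts, and TMM factors scaled the libraries. The main test was the robust quasi-likelihood F test of edgeR 4.0.16 on all 12 libraries in a 4-group model with 8 residual degrees of freedom, two-sided, with Benjamini-Hochberg adjustment over all genes tested. It gave the siRNA effect at each day and the difference of these effects, day 13 minus day 9. Intervals are at 95% and cover the spread between libraries. Alternatives were DESeq2 size factors and upper-quartile scaling in edgeR, no filter, a mean of at least 5 CPM, DESeq2 1.42.0, limma-voom from limma 3.58.1, the replicate number as a block, each day fitted alone, and each library left out in turn. Leaving out the pair of day 13 libraries lowest on the third principal component, and thinning day 9 counts to the mean day 13 total, were chosen after seeing the data. Simulated counts served to test the steps. No pair of libraries within a group agreed within sampling noise.

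The 9 genes and the 13 other gene lists were chosen with earlier results of these data known. The genes named are the 9, Eif3m, up to 4 called genes with the smallest p of each list, and for each of the 9 the 3 genes nearest by Pearson correlation of log2 CPM (prior count 2) among genes averaging at least 5 CPM. Other names are marked where they occur, except genes given for a list's lack of counts. Analyses used R 4.3.3, and figures Python 3.11.15 with matplotlib 3.10.9.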

Additional observations from a re-analysis of the deposited data

Results flagged for a closer look

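For 2 of the 9 genes, Sox9 and Krt8, the siRNA effect at day 13 differed from that at day 9 in edgeR's test of the difference itself. The day 13 effect exceeded the day 9 effect by 1.71 on the log2 scale for Sox9 (adjusted p = 0.00737 by edgeR) and by 0.69 for Krt8 (adjusted p = 0.0424 by edgeR). Among the related genes named, the same test passed for Hes1, with a difference of 1.39 (adjusted p = 0.0257 by edgeR), and for 3 genes whose effect was lower at day 13 than at day 9. These were Cd44, with a difference of -1.61 (adjusted p = 0.00504 by edgeR), Ccn2, with -1.93 (adjusted p = 0.00242 by edgeR), and Axl, with -0.94 (adjusted p = 0.0151 by edgeR). The days also differed in depth and in the set of libraries, which cannot be told apart from the day itself, and each effect was taken against controls of its own day. Groups of 3 are too small for a check of single libraries that lie far from the others.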

How the results depend on the processing

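The day 13 rises of Sox9, Krt8 and Krt18 kept their direction and call in every alternative that could be fitted, including each of the 12 libraries left out in turn, although Sox9 fell outside the filter of at least 5 CPM. Among the 9 genes, the number higher at day 13 (4) was 2 with that filter, 3 with upper-quartile scaling, limma-voom, the replicate block, each day alone (where Krt23 did not pass the filter at day 13) and without the pair of day 13 libraries lowest on the third principal component, and 3 to 4 with a library left out. The number higher at day 9 (0) was 1, Krt18, with each day fitted alone and without that pair, and 0 to 1 with a library left out. The number differing between the days (2) was 1 with upper-quartile scaling, with at least 5 CPM and with the replicate block, and 1 to 3 with a library left out.

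Over all genes, calls at day 9 (1821) were 2740 by limma-voom, 3412 with each day alone, 3050 without that pair, 1178 after thinning and 884 to 2250 with a library left out. Calls at day 13 (3377) were 2014 with each day alone and 2299 to 3288 with a library left out. Calls of the difference (364) were 955 by DESeq2, 117 with the replicate block, 219 after thinning, 518 without that pair and 130 to 508 with a library left out. As raw counts, not divided by length, the mean Krt8 to Krt18 ratio was 0.707 in siRNA and 1.11 in control livers at day 9, and 0.753 in siRNA and 1.16 in control livers at day 13. Per kilobase, with a library left out, it was 0.513 to 0.526 in siRNA and 0.777 to 0.856 in control livers at day 9, and 0.508 to 0.578 in siRNA and 0.806 to 0.898 in control livers at day 13.

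Signs changed only for log2 values that were not called. With a library left out, the ranges were -0.32 to 1.19, -0.60 to 0.14 and -1.30 to 0.21 for Krt19 at day 9, at day 13 and for the difference, -0.04 to 0.18, -0.37 to 0.14 and -0.42 to 0.09 for Epcam, -0.22 to 0.06 for the Spp1 difference and -0.18 to 0.46 for Cd24a at day 9. Likewise they were -0.31 to 0.04 for Vim at day 13, -0.14 to 0.02 for Axl at day 9, and -0.08 to 0.28, -0.05 to 0.31 and -0.31 to 0.03 for the differences of Notch1, Tead1 and Ccn1. After thinning, the values were -0.45 for Krt19 at day 9 and 0.34 for its difference, 0.04 for the Spp1 difference, -0.19 for Cd24a at day 9 and -0.07 for the Tead1 difference. Epcam at day 13 was 0.02 by limma-voom and 0.05 without the same pair, where its difference was 0.01, Spp1 at day 13 was 0.00 and the Spp1 difference, with its sign kept, was -0.26. The cause was not tested.

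Libraries of the same replicate number did not deviate together, with correlations of -0.109, -0.158 and 0.158 at day 9 and 0.0811, -0.0671 and -0.0133 at day 13, so the numbers do not pair the samples. With the replicate block, the adjusted p by edgeR was 0.127 for the Krt8 difference and 0.107 for Krt23 at day 13, and the other calls of the 9 genes stood. Of the related genes named, calls were also lost with the block for Hes1 at day 9 (0.0804), at day 13 (0.0826) and for its difference (0.0895), for the Axl difference (0.0623), and for Jup (0.134) and Notch1 (0.0631) at day 9 and Ccn1 at day 13 (0.0863). Besides the Hes1 losses given above, the day 13 calls lost with each day alone were Notch1 (0.073) and Ccn1 (0.0569), both by edgeR. Ccn1 was also lost by limma-voom (0.124). At day 9, thinning ended the edgeR calls of Notch1 (0.228), Jup (0.119) and Tnfrsf12a (0.114), and leaving out the filter that of Jup (0.135). Krt7 passed the filter in 6 of the 12 fits with a library left out. At day 13, 1 count of 0.0927 to 0.142 CPM limits what Krt7, Epcam and Krt23 can show.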
